A study of Homo sapiens with 95 samples.

Results

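Expression of 10 genes that mark the basal epithelial state or the epithelial-mesenchymal transition (EMT) was described in AALE, a line of human airway epithelial cells that was immortalized and grows in culture. The genes were taken by symbol, a choice made with earlier results of these data known, and are 10 of the 27978 genes counted in every library: the basal and epithelial transcription factors TP63, SOX2, KLF5 and GRHL2, the EMT transcription factors SNAI2, ZEB1 and TWIST1, and the mesenchymal products VIM, FN1 and SPARC. Counts came from sparse full-length RNA sequencing (SFL), a multiplexed method with few reads per library, for 95 libraries of 8 cell lines under 4 treatments. Of the 10 genes, 9 had a mean count above 1 over the 95 libraries and entered the tests, and SOX2 did not.

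The lines fell into 2 families with separate controls. CRISPR knockouts of FAT1 and CDKN2A were compared with GFP cells, which received the Cas9-EGFP plasmid PX458 without a guide RNA, and cells overexpressing NRF2 (gene NFE2L2), FGFR1, NRG1 or PIK3CA were compared with cells carrying the HcRed reporter vector. Each line was exposed to the vehicle DMSO, to cigarette smoke condensate (CSC, 24 μg/ml), to benzo[a]pyrene (BaP, 173 μM) or to the tobacco nitrosamine NNK (490 μM), with 3 wells per group and 2 in FGFR1 with CSC. Each line therefore had 12 libraries, except FGFR1 with 11. The sources used here do not state whether each line was made once or is clonal, nor the length of exposure, so that p-values measure the spread between wells of a line.

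Basal cells are the stem cells of the airway epithelium, attached to the basement membrane and marked by the keratins KRT5 and KRT14. TP63 is the transcription factor that maintains them, and KLF5 and GRHL2 keep epithelial genes, including those of cell junctions, active. In EMT, zinc-finger and helix-loop-helix repressors such as SNAI2, ZEB1 and TWIST1 silence junction genes, while the intermediate filament vimentin (VIM), the matrix glycoprotein fibronectin (FN1) and the matrix-binding protein osteonectin (SPARC) are made in larger amounts. SNAI2 is also a normal product of basal cells.

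The largest differences between lines lay in the 3 mesenchymal products, and their promoters are shown for that reason. Each stretch holds the 250 bases before the RefSeq start site, 5′ to 3′ on the gene's strand, in GRCh38.p14, at chr2:215436069-215436318 on the minus strand for FN1, chr10:17227991-17228240 on the plus strand for VIM and chr5:151686916-151687165 on the minus strand for SPARC. Capitals mark the GC box GGGCGG, searched on both strands with overlapping matches counted, the sequence bound by KLF and SP factors.

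FN1: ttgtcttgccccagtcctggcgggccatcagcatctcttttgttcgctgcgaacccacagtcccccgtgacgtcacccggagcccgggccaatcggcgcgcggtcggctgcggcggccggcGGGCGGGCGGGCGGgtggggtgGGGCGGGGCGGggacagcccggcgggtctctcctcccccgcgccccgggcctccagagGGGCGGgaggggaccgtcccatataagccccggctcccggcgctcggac
VIM: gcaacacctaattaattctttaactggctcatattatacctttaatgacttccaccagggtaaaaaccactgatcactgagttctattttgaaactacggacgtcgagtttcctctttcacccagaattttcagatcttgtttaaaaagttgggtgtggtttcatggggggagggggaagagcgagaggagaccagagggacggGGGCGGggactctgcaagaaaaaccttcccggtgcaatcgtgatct
SPARC: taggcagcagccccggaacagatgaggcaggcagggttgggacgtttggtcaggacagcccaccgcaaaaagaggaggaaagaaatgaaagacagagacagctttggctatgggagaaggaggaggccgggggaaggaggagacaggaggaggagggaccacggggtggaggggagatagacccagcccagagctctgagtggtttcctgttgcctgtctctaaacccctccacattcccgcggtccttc

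FN1 held 6 GC boxes, VIM 1 and SPARC 0, while 42.6% of 35116 promoters of the same length held at least 1. The E-box CAGGTG, the motif of SNAI and ZEB zinc fingers, was found in none of the 3 stretches and in 17.5% of all promoters. These matches describe letters in a short window and were not linked to any measured value. In GRCh37 the genes lie at chr2:216225163-216300796 (FN1, minus strand), chr10:17270240-17279592 (VIM, plus strand) and chr5:151040657-151066536 (SPARC, minus strand), and the counts cover their exons. VIM shares 342 exon bases with a gene on the opposite strand and SPARC shares 51, and since the strand setting of the counting is not given in the sources used here, a share of such reads is uncertain.

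Counted reads per library ranged from 287446 to 2116383, with a median of 934235, so that 3 reads corresponded to between 1.42 and 10.4 CPM (a count per 1e6 counted reads, scaled here by the TMM method). The perturbed genes followed the labels, with FAT1 at 66.5 to 129 CPM in its knockout against 260 to 451 in GFP, CDKN2A at 35.1 to 66.8 against 79.1 to 147, and every overexpressed gene above the whole range of HcRed. NRG1 reads above 60 CPM were also found in 8 of the 83 libraries of other lines, including 2 of 3 FGFR1 DMSO libraries at 373 and 355 CPM and all 3 NRF2 CSC libraries at 76.9 to 150 CPM, and values without these 8 libraries are given where a call named here was lost. The tests of a chemical within a single line were not repeated without them. The 8 basal identity markers were read in every line, with a summed level of 4060 to 12000 CPM. Fibroblast markers summed to 8.18 to 66.9 CPM, mostly COL1A1, with COL3A1 at 3 reads in all 95 libraries together and at 0 in 6 of the 8 lines, and secretory and ciliated markers to at most 9.85 CPM. Blood and endothelial markers summed to 4.06 to 46.1 CPM, mostly CD68, a lysosomal protein abundant in macrophages, at 0 to 38.8 CPM, while the T cell marker CD3E was at 0 in all 95 libraries and the leukocyte marker PTPRC had 7 reads in all. CD68 moved with some of the comparisons, rising in PIK3CA (1.68-fold, adjusted p = 9.21e-05), with CSC (2.01-fold, adjusted p = 2.27e-10) and with BaP (1.26-fold, adjusted p = 0.0432) and being 2.01-fold lower in GFP than in HcRed (adjusted p = 1.96e-04), and its part in the members' values was not tested.

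Of the basal and epithelial factors, over 4 treatments TP63 and GRHL2 differed between a line and its control by at most 1.36-fold, and KLF5 was lower than its control in 5 of 6 perturbed lines. Median TP63 levels ran from 159 CPM in NRG1 (149 to 181) to 250 CPM in CDKN2A (186 to 304), lines of different families. SOX2, a factor of airway progenitors that is amplified in squamous lung cancer, was barely read, with 20 reads in all and 79 of 95 libraries at 0. Neither a presence nor a change of SOX2 was detectable at this depth.

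**Figure D1:**
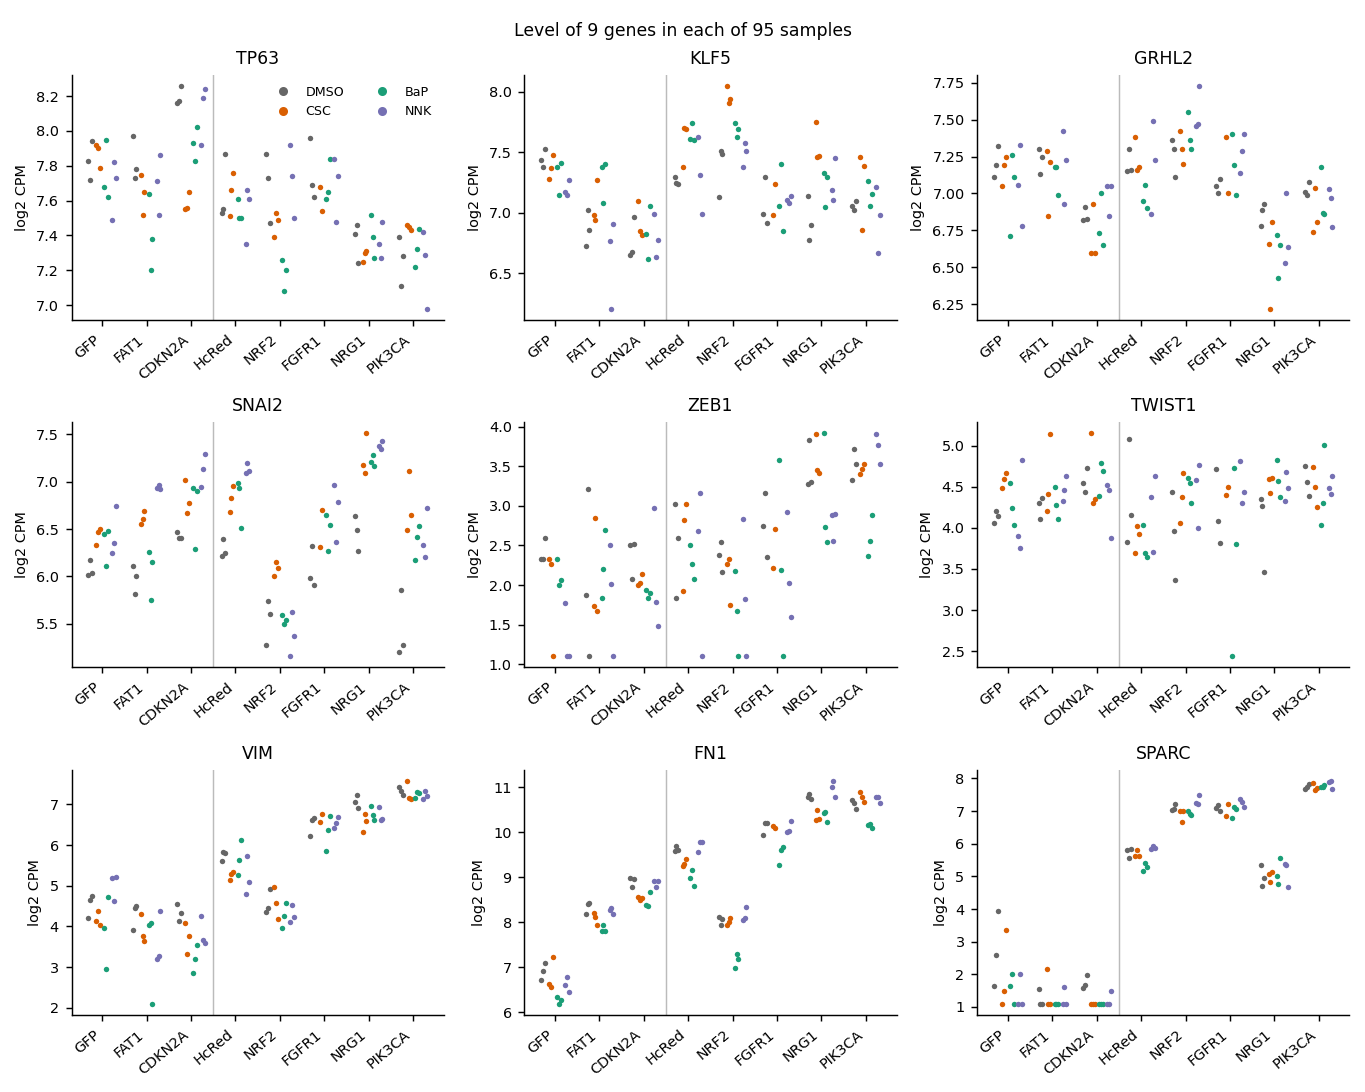
Level of the 9 tested genes (all but SOX2) in each of the 95 libraries, as log2 CPM with a prior count of 2, by line (horizontal axis) and treatment (colours), each point being 1 library and the grey vertical line dividing the knockout family from the overexpression family. FN1, VIM and SPARC separate the lines, and SPARC is near 0 reads in GFP, FAT1 and CDKN2A.

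Under DMSO, TP63 stood at 283, 286 and 304 CPM in CDKN2A and at 225, 208 and 243 CPM in GFP. The CDKN2A values lay above all GFP values, a 1.26-fold rise (log2 fold change 0.34 ± 0.08 SE, adjusted p = 6.80e-04). Under DMSO 46.2% of all tested genes had no overlap between these 2 lines. Over all 4 treatments the rise was 1.14-fold (0.19 ± 0.06, adjusted p = 0.00448), and it did not pass without the DMSO samples (0.13, adjusted p = 0.142) or without the NNK samples (0.10). In the CSC samples alone the sign was opposite (-0.27, adjusted p = 0.0411). TP63 fell in PIK3CA by 0.29 on the log2 scale (± 0.06, adjusted p = 3.06e-05) and in NRG1 by 0.21 (± 0.06, adjusted p = 0.0103), the latter call being kept in 11 of 18 alternative settings. In the order of the lines over 4 treatments, CDKN2A differed from the next line, GFP, by 0.21 (adjusted p = 0.00180). No other pair of neighbours passed (adjusted p of at least 0.132).

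KLF5 under DMSO read 172, 164 and 182 CPM in GFP, 104, 128 and 114 CPM in FAT1 and 98.6, 100 and 124 CPM in CDKN2A. Both knockouts lay wholly below their control. Of all tested genes, 38.7% in FAT1 and 46.2% in CDKN2A had no overlap with GFP under DMSO. Over 4 treatments KLF5 fell 1.46-fold in CDKN2A (-0.55 ± 0.07, adjusted p = 5.09e-11), with no overlap between the 12 samples of each line, and 1.29-fold in FAT1 (-0.37 ± 0.07, adjusted p = 1.27e-05). The FAT1 difference was absent among BaP samples alone (0.01, adjusted p = 0.986). KLF5 also fell in PIK3CA (-0.38 ± 0.06, and -0.24 without replicate 2), FGFR1 (-0.35 ± 0.07) and NRG1 (-0.21 ± 0.07, adjusted p = 0.0302, kept in 12 of 18 alternatives, and -0.13 without replicate 2, adjusted p = 0.422). In NRF2 it rose by 0.17 (± 0.06, adjusted p = 0.0305), a call lost without the 8 libraries with NRG1 reads (0.08, adjusted p = 0.471), without the CSC samples (0.08, adjusted p = 0.436) and without replicate 2 or 3 (adjusted p = 0.0824 and 0.184). Between neighbours in the order of KLF5 levels, from NRF2 down to CDKN2A, no step passed (adjusted p of at least 0.0791).

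GRHL2, a partner of junction gene activation, was lowest in NRG1, with a median of 101 CPM (72.4 to 126) against 141 CPM (114 to 178) in HcRed. It fell in NRG1 (-0.44 ± 0.07, adjusted p = 9.18e-06), CDKN2A (-0.31 ± 0.07, adjusted p = 1.20e-04) and PIK3CA (-0.23 ± 0.06, adjusted p = 0.00354), and rose in NRF2 (0.23 ± 0.06, adjusted p = 0.00461). The largest of these changes was 1.36-fold. The NRF2 and PIK3CA calls were each lost when 1 replicate was left out, at 0.16 (adjusted p = 0.165) without replicate 1 and -0.19 (adjusted p = 0.0907) without replicate 2. Without the BaP samples the NRF2 estimate was 0.17 (adjusted p = 0.128), and without the CSC samples that of PIK3CA was -0.16 (adjusted p = 0.132).

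Among the EMT factors only SNAI2 was well counted, at a median of 39.8 RPKM (CPM divided by the exon length in kilobases), next to 11.6 for TWIST1 and 0.498 for ZEB1 on the same per-length scale. Over 4 treatments SNAI2 was lowest in NRF2 and highest in NRG1, while under DMSO alone the PIK3CA mean, 42.5 CPM (± 11.8 SD, n = 3), lay slightly below that of NRF2, 44.9 CPM (± 7.43 SD, n = 3), and the samples overlapped. Under DMSO 22.9% of all tested genes, SNAI2 among them, had no overlap between NRF2 and HcRed. SNAI2 read 36.8, 51.4 and 46.5 CPM in NRF2 and 72.3, 82.1 and 73.8 CPM in HcRed. Over 4 treatments it fell 2.21-fold in NRF2 (-1.14 ± 0.10, adjusted p = 2.34e-16), with all 12 NRF2 samples, at 33.5 to 69.0 CPM, below all 12 HcRed samples, at 72.3 to 145 CPM. It also fell in PIK3CA (-0.53 ± 0.08, adjusted p = 4.97e-07) and FGFR1 (-0.34 ± 0.08, adjusted p = 8.62e-04), and rose in CDKN2A (0.46 ± 0.08, adjusted p = 8.50e-07) and NRG1 (0.34 ± 0.07, adjusted p = 1.93e-04). The FGFR1 call did not pass without replicate 2 (-0.23, adjusted p = 0.139). The PIK3CA estimate ran from -0.84 among NNK samples alone to -0.12 (adjusted p = 0.620) among CSC samples alone, where it did not pass. The NRF2 difference passed in both, at -1.78 and -0.73. Whether either line difference depends on the treatment was not tested for these pairs of lines.

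ZEB1, a repressor of junction genes, was counted at 0 to 21 reads per library and reached at most 13.0 CPM. Its median was 9.18 CPM in PIK3CA (3.04 to 12.9) and 7.67 CPM in NRG1 (3.71 to 13.0) against 3.75 CPM in HcRed (0 to 6.85). ZEB1 rose 2.20-fold in PIK3CA (1.13 ± 0.26, adjusted p = 4.21e-04) and 2.17-fold in NRG1 (1.12 ± 0.28, adjusted p = 0.00399), and the ranges overlapped in both. The NRG1 call was lost without replicate 1 (0.93, adjusted p = 0.120) and without the CSC samples (adjusted p = 0.0516). The PIK3CA call passed in 14 of 17 alternatives, where the estimate ran from 0.38 to 1.57. Under DMSO alone ZEB1 passed in neither line (adjusted p = 0.146 in PIK3CA and 0.364 in NRG1). TWIST1, a helix-loop-helix EMT factor, had medians between 13.6 and 20.4 CPM in all 8 lines and rose in PIK3CA by 0.46 (± 0.15, adjusted p = 0.0176), which passed in 10 of 18 alternatives. No replicate could be left out there without losing the call (adjusted p 0.0502 to 0.174).

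FN1 was the member that separated the lines most finely. Under DMSO it read 103, 118 and 135 CPM in GFP, 290, 339 and 341 CPM in FAT1 and 498, 440 and 495 CPM in CDKN2A. Both knockouts lay above GFP without overlap, as they did over all 12 samples of each line. Over 12 samples, 4.18% of all tested genes had no overlap in FAT1 and 8.45% in CDKN2A, against 38.7% and 46.2% under DMSO. FN1 rose 4.03-fold in CDKN2A (2.01 ± 0.07, adjusted p = 4.76e-38) and 2.77-fold in FAT1 (1.47 ± 0.07, adjusted p = 4.97e-32). In the overexpression family the DMSO values were 768, 832 and 772 CPM in HcRed, 274, 244 and 266 CPM in NRF2, 977, 1180 and 1180 CPM in FGFR1, 1740, 1840 and 1710 CPM in NRG1 and 1680, 1600 and 1460 CPM in PIK3CA. NRF2 lay below HcRed and the other three above it. FN1 fell 2.96-fold in NRF2 (-1.56 ± 0.05) and rose 2.34-fold in NRG1 (1.23 ± 0.04), 2.23-fold in PIK3CA (1.15 ± 0.04) and 1.48-fold in FGFR1 (0.57 ± 0.04), with adjusted p of at most 1.26e-18. Each of the 6 FN1 calls passed under all 18 alternatives.

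Over 4 treatments VIM was higher in the FGFR1, NRG1 and PIK3CA lines and lower in NRF2 and both knockouts. Under DMSO it read 46.5, 54.7 and 54.1 CPM in HcRed, 131, 149 and 117 CPM in NRG1 and 170, 160 and 149 CPM in PIK3CA. VIM rose 3.56-fold in PIK3CA (1.83 ± 0.09), 2.61-fold in NRG1 (1.39 ± 0.09) and 2.14-fold in FGFR1 (1.10 ± 0.10), with adjusted p of at most 1.37e-13, and every PIK3CA and NRG1 sample lay above every HcRed sample over the 4 treatments. In FGFR1 under DMSO alone the VIM call did not pass without the libraries with NRG1 reads (0.48, adjusted p = 0.463), while over 4 treatments the estimate stayed at 1.10. VIM fell 2.17-fold in NRF2 (-1.12 ± 0.14, adjusted p = 4.08e-10), 1.67-fold in CDKN2A (-0.74 ± 0.18, adjusted p = 3.08e-04) and by 0.59 on the log2 scale in FAT1 (± 0.19, adjusted p = 0.00766). The FAT1 change did not pass without the NNK samples (-0.32, adjusted p = 0.193) nor without replicate 3 (-0.47, adjusted p = 0.0854). In CDKN2A the estimate ran from -0.46 without the NNK samples to -1.46 in NNK samples alone, and it did not pass in CSC (-0.47, adjusted p = 0.337) or BaP samples alone (-0.89, adjusted p = 0.136). Under DMSO alone VIM did not pass in either knockout, at -0.36 in FAT1 (adjusted p = 0.359) and -0.25 in CDKN2A (adjusted p = 0.482), nor under any of 16 alternatives in each.

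SPARC moved apart from FN1 and VIM in NRF2 and NRG1. Under DMSO it read 53.4, 44.6 and 55.1 CPM in HcRed, 129, 131 and 146 CPM in NRF2, 133, 144 and 126 CPM in FGFR1 and 202, 210 and 224 CPM in PIK3CA. These 3 lines lay above HcRed without overlap over all treatments. SPARC rose 4.41-fold in PIK3CA (2.14 ± 0.07), 2.79-fold in FGFR1 (1.48 ± 0.08) and 2.70-fold in NRF2 (1.43 ± 0.08), with adjusted p of at most 2.33e-25. In NRG1 it fell 1.52-fold (-0.60 ± 0.11, adjusted p = 6.23e-05), from a median of 50.3 CPM to 30.5 CPM. That call passed in 15 of 18 alternatives, with estimates from -0.77 to -0.26. Under DMSO alone the change was -0.71 (adjusted p = 0.0368) and passed in 9 of 16 alternatives. SPARC was nearly unread in the knockout family, with 34 reads over 12 GFP libraries, 4 in FAT1 and 5 in CDKN2A. The test called SPARC lower in both knockouts than in GFP (adjusted p = 0.0129 and 0.0120), but 25 of the 34 GFP reads came from 2 libraries, DMSO replicate 3 with 17 and CSC replicate 3 with 8. Those libraries also had the most reads of KRT7 in the GFP line, at 33.3 and 20.3 CPM against a median of 196 CPM in HcRed, and whether this bears on SPARC was not tested. Without replicate 3 SPARC did not reach the count minimum in either comparison, and without replicate 2 neither call passed (adjusted p = 0.0699 and 0.0798).

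**Figure D2:**
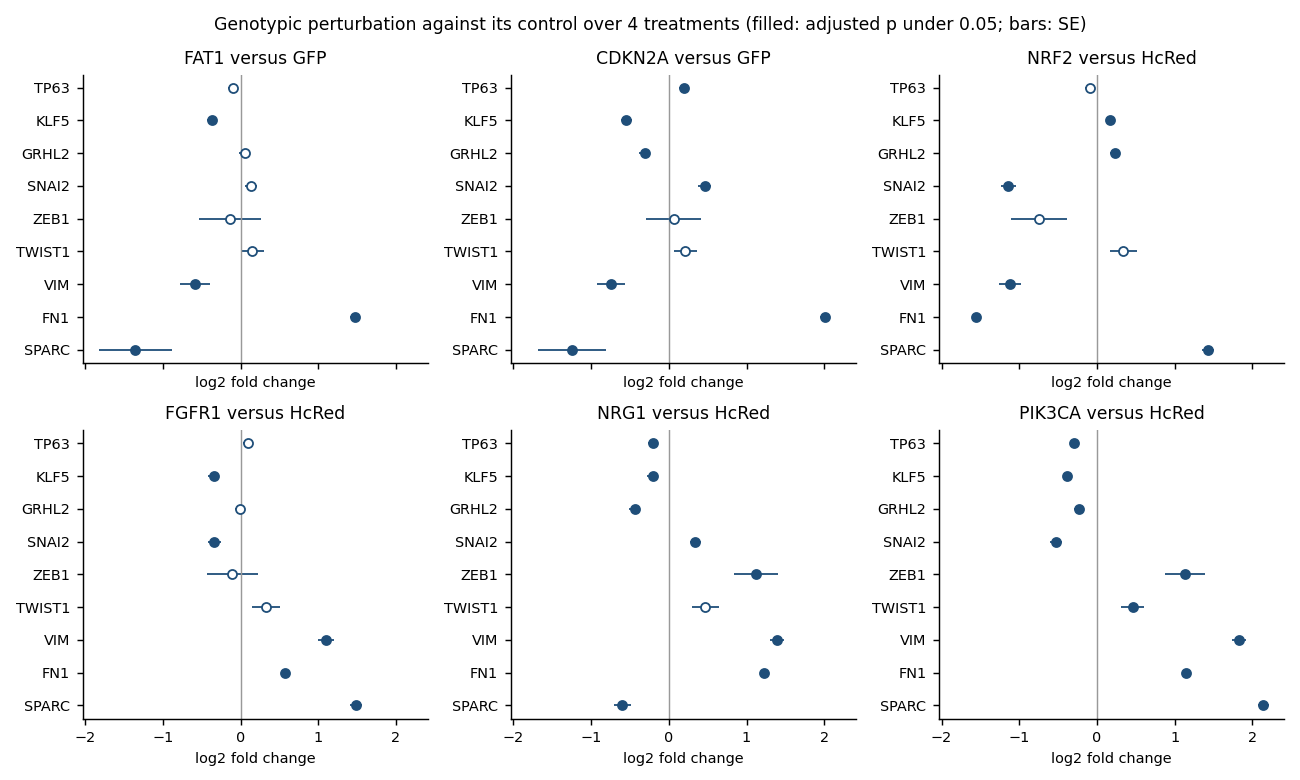
Log2 fold change of each tested gene in each line against its control over 4 treatments, with standard errors, from limma-voom, where filled symbols passed an adjusted p of 0.05. FN1 lies above 0 in 5 of 6 lines and below 0 in NRF2, VIM is above 0 in 3 and below 0 in 3, and SPARC reaches 2.14 in PIK3CA.

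Counted over the 6 comparisons with 4 treatments, 39 of 54 member tests passed, 19 higher and 20 lower. FAT1 had 4 of 9 members called where 48.9% of all tested genes were called, CDKN2A 7 of 9 against 57.6%, NRF2 6 of 9 against 21.6%, FGFR1 5 of 9 against 13.5%, NRG1 8 of 9 against 10.8% and PIK3CA 9 of 9 against 27.8%. The share of members lay near the background in FAT1 and above it in the other 5 lines, least clearly in CDKN2A. The members were chosen with earlier results of these data known, and the background was not matched for read count. These shares, and those that follow, are therefore descriptions and not a test of the members as a set. The counts of FAT1 and CDKN2A each include the SPARC call described above, which did not pass without replicate 2. Under DMSO alone 23 of 54 member tests passed against 14.0% of all gene tests. In 12 of 54 member comparisons the samples of a line and its control did not overlap over the 4 treatments, against 2.62% of all gene comparisons. Under DMSO alone, with 3 against 3 samples, between 16.9% (FGFR1) and 46.2% (CDKN2A) of all tested genes did not overlap.

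The 2 control lines differed from each other more than any perturbed line differed from its control for FN1 and SPARC. FN1 ranged from 70.9 to 147 CPM in GFP and from 446 to 885 CPM in HcRed, 6.66-fold lower in GFP (-2.74 ± 0.06, adjusted p = 4.48e-54). The SPARC difference was -4.45 on the log2 scale (± 0.30, adjusted p = 2.28e-22), VIM was 2.16-fold lower (-1.11 ± 0.15, adjusted p = 8.27e-10) and SNAI2 1.36-fold lower (-0.44 ± 0.07, adjusted p = 6.86e-07). TP63 was 1.15-fold higher in GFP (0.20 ± 0.05, adjusted p = 0.00137). In all, 5 of 9 members passed where 45.0% of all tested genes did. The vector, the way each family was made and the handling of the family cannot be told apart in this difference, so levels across families are given side by side without reading a perturbation from them.

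**Figure D3:**
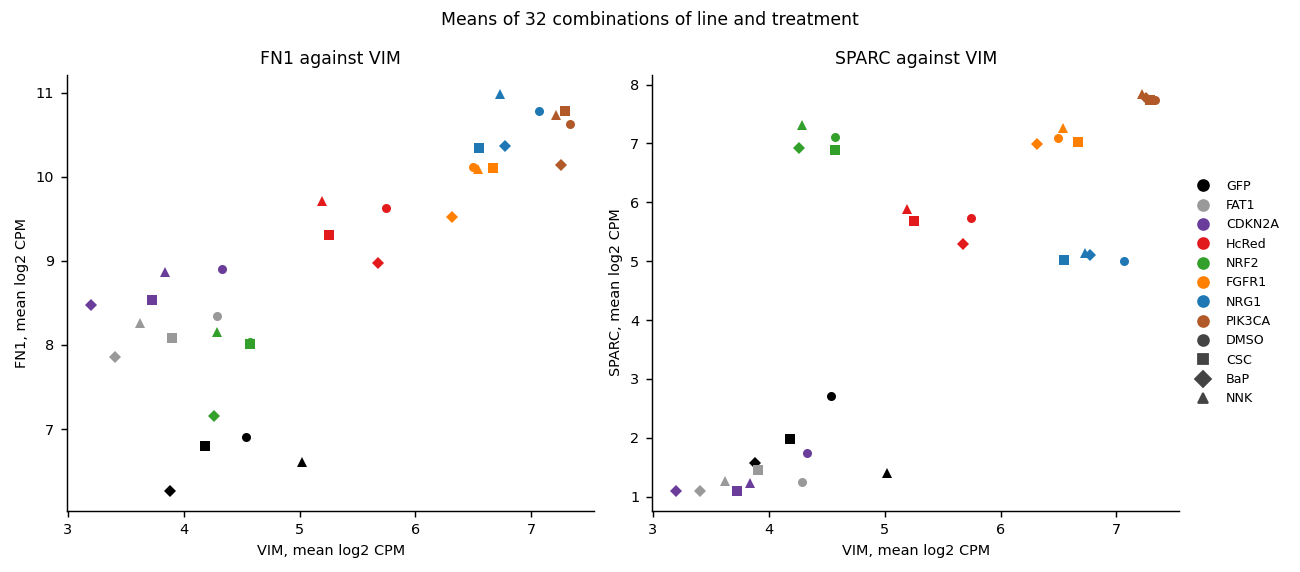
Mean log2 CPM of FN1 (left) and of SPARC (right) against mean log2 CPM of VIM, each point being 1 of the 32 groups of line (colours) and treatment (symbols), without error bars. FN1 and VIM are both high in FGFR1, NRG1 and PIK3CA, while the NRF2 groups combine low VIM with high SPARC.

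Ordered over the 8 lines, FN1 ran NRG1, PIK3CA, FGFR1, HcRed, CDKN2A, FAT1, NRF2, GFP. All 7 steps passed, the smallest being 0.10 between NRG1 and PIK3CA (adjusted p = 0.0418). VIM ran PIK3CA, NRG1, FGFR1, HcRed, NRF2, GFP, FAT1, CDKN2A, and the steps from NRF2 to GFP (0.03, adjusted p = 0.878) and from FAT1 to CDKN2A (0.13, adjusted p = 0.591) did not pass. SPARC ran PIK3CA, FGFR1, NRF2, HcRed, NRG1, GFP, CDKN2A, FAT1, and the steps from FGFR1 to NRF2 (0.04, adjusted p = 0.724) and from CDKN2A to FAT1 (0.07, adjusted p = 0.884) did not pass. Over all 28 pairs of lines, 178 of 252 member tests passed against 41.2% of all gene tests, with 28 for FN1, 26 for VIM and 4 for TWIST1.

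Line membership took up nearly all the variance of the 3 products. Of the variance of log2 CPM over 95 libraries, line accounted for 97.7% in SPARC, 95.3% in FN1 and 90.8% in VIM, against a median of 39.1% over 10062 genes. SNAI2 had the largest share for treatment, 23.3% against a median of 11.4%, and TWIST1 the largest share between replicates, 61.0% against 31.2%. These shares are descriptions without a test.

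**Figure D4:**
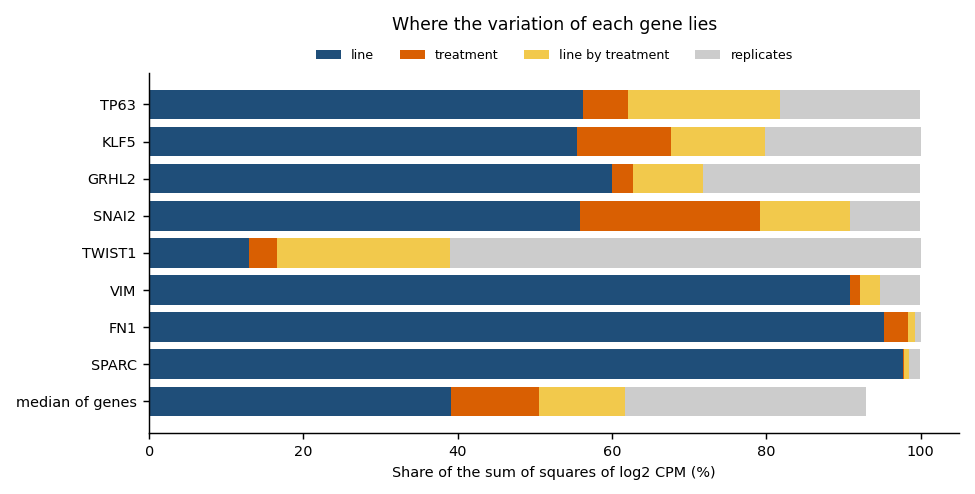
Percent of the variance of log2 CPM that falls to line, treatment, their combination and replicates, for the 8 members whose mean count reached 10 and for the median of 10062 genes, whose bar holds a separate median for each component and so need not sum to 100. SPARC, FN1 and VIM are almost wholly filled by line, SNAI2 shows 23.3% for treatment and TWIST1 61.0% for replicates.

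Other genes of the same programmes were counted from lists of basal, epithelial and mesenchymal genes, to be read against the shares of all genes called in each line, from 10.8% in NRG1 to 57.6% in CDKN2A. In PIK3CA, 16 of 22 basal cell genes fell and 3 rose, with a median of -0.49 against -0.01 for all tested genes, KRT17 falling by 1.42 and KRT14 by 0.94 on the log2 scale, both keratins of basal cells. FGFR1 and NRG1 also had more basal genes lower than higher, 14 against 2 and 12 against 3, and FAT1 had 13 against 3, where the KRT14 change was -3.13 (± 0.10). Mesenchymal genes rose more often than they fell in NRG1 (8 and 1 of 18 tested), FGFR1 (8 and 1 of 19), CDKN2A (9 and 2 of 16) and PIK3CA (7 and 3 of 19), where the cadherin CDH2 rose by 1.95 (± 0.25) and the kinase receptor AXL by 1.17 (± 0.07) while the collagen gene COL1A1 fell by 0.99 (± 0.16) and TNC, a matrix protein, by 0.25 (± 0.09). In NRF2, 7 of 18 fell and 2 rose, TNC falling by 1.32 (± 0.13). Among junction and epithelial splicing genes, 12 of 23 fell in CDKN2A and 5 rose, 11 fell in PIK3CA and 4 rose, and 9 fell in NRG1 and 1 rose, while in FAT1 9 rose and 5 fell, with the cadherin CDH1 falling by 0.43 (± 0.04). Of the other EMT factors, 3 of 3 tested rose in FAT1 and 3 of 4 in CDKN2A, where 48.9% and 57.6% of all tested genes were called in either direction, 1 of 5 rose in NRG1 and 1 of 5 in PIK3CA, and 0 of 4 passed in NRF2 and in FGFR1. Among these, TCF3 in FAT1 (0.23 ± 0.07) was the only one with a mean count of at least 10. The simple-epithelium keratin KRT8, of the junction and splicing list, rose by 1.30 (± 0.06) in PIK3CA and 1.29 (± 0.07) in FAT1. It also rose in FGFR1 (1.20 ± 0.06), NRF2 (0.96 ± 0.06) and CDKN2A (0.76 ± 0.08). In PIK3CA its partner KRT18 rose by 0.90 (± 0.06), while KRT19, a simple-epithelium keratin of the same list, fell by 1.78 (± 0.05).

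The genes whose pattern over the 32 group means lay closest to a member are given as a description, since group means share lines and families. SPARC ran most like KRT7 (Pearson r = 0.995) and TERT (0.977). The same correlations were 0.990 and 0.877 within the 20 groups of the overexpression family. Within the 12 groups of the knockout family, where SPARC was nearly unread, they were 0.634 and 0.395. Median KRT7 was 3.60 to 3.82 CPM in the knockout family and between 129 CPM in NRG1 and 1060 CPM in PIK3CA. GRHL2 ran most like ST6GALNAC2 (0.835), SNAI2 like SEPT9 (0.825), TP63 like XRN1 (0.792), KLF5 like TMEM63C (0.757) and TWIST1 like SPHK2 (0.537). FN1 ran most like TGM2 (0.898) and C3 (0.889), and both held within each family (0.858 and 0.883 in the knockout family, 0.798 and 0.880 in the overexpression family). VIM ran most like RAB3B (0.889) and LAMB1 (0.859), with 0.923 and 0.833 within the overexpression family and 0.378 and 0.269 within the knockout family. The correlation of VIM and FN1 was 0.84 over the 8 line means and 0.37 once line means were removed, and that of FN1 and SPARC 0.59 and 0.51.

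SNAI2 rose with all 3 chemicals and FN1 fell with BaP. Over the 8 lines SNAI2 rose 1.67-fold with NNK (0.74 ± 0.06, adjusted p = 8.74e-20), 1.55-fold with CSC (0.63 ± 0.06, adjusted p = 2.00e-16) and 1.39-fold with BaP (0.47 ± 0.06, adjusted p = 4.25e-10). FN1 fell 1.40-fold with BaP (-0.49 ± 0.03, adjusted p = 2.24e-26). These 4 calls, over 8 lines, passed under all 20 alternatives, where SNAI2 ranged from 0.40 to 0.94 and FN1 with BaP from -0.54 to -0.32.

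SNAI2 levels under DMSO had a median of 65.3 CPM (34.6 to 97.3) over 24 libraries, against 99.8 CPM with CSC, 86.4 CPM with BaP and 119 CPM with NNK. In PIK3CA it read 34.6, 56.1 and 36.8 CPM with DMSO and 87.7, 136 and 98.3 CPM with CSC, and in HcRed 72.3, 82.1 and 73.8 CPM with DMSO and 134, 145 and 136 CPM with NNK. Both treated groups lay above their DMSO samples, and how many of all genes did so was not counted. Within single lines, where 42 of 210 member tests passed (20.0%) against 12.2% of all gene tests, SNAI2 rose with CSC in 8 of 8 lines, from 0.36 in GFP (adjusted p = 0.0427) to 1.23 in PIK3CA (adjusted p = 1.90e-08). In NRF2 all CSC libraries are among the 8 with NRG1 reads. With NNK SNAI2 rose in 6 of 8 lines and not in GFP (0.34, adjusted p = 0.161) or NRF2 (-0.13, adjusted p = 0.780), and with BaP it rose in HcRed, NRG1 and PIK3CA. In NRF2 the NNK samples read 33.5, 47.3 and 39.2 CPM and overlapped the DMSO samples.

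FN1 fell with BaP in 8 of 8 lines. In NRF2 it read 274, 244 and 266 CPM with DMSO and 125, 155 and 143 CPM with BaP, the largest change at -0.91 (adjusted p = 7.64e-11), and in NRG1 the change was -0.38 (adjusted p = 9.13e-05), from 1740, 1840 and 1710 CPM to 1370, 1390 and 1200 CPM. In within-line tests with CSC, FN1 fell in NRG1 (-0.42), CDKN2A (-0.33) and HcRed (-0.33) and rose in PIK3CA (0.12, adjusted p = 0.0245). The estimate was above 0 in 1 of 8 lines. The test of a difference between lines, given below, did not pass in the main fit (adjusted p = 0.255) but passed with edgeR and DESeq2. Over 8 lines the CSC change was -0.14 (adjusted p = 2.28e-04), which became 0.05 (adjusted p = 0.326) with a correction for GC content and length and did not pass without the NRG1 line (-0.07, adjusted p = 0.0726). With NNK FN1 rose by 0.11 (adjusted p = 5.26e-04), 0.07 (adjusted p = 0.0460) without the NRG1 line, a call not made by edgeR (0.05, adjusted p = 0.152) or DESeq2 (0.05, adjusted p = 0.193).

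Among the other members, KLF5 rose with CSC (0.25 ± 0.05, adjusted p = 5.24e-06) and BaP (0.22 ± 0.05, adjusted p = 3.22e-05) under all alternatives and was at -0.00 with NNK (adjusted p = 0.971). In NRF2, KLF5 read 138, 180 and 178 CPM with DMSO and 262, 239 and 244 CPM with CSC (0.61 ± 0.11, adjusted p = 6.59e-06). All of these CSC libraries are among the 8 with NRG1 reads, so no value without them can be given. VIM fell with each chemical, by 0.22 with BaP (adjusted p = 0.00906), 0.20 with CSC (adjusted p = 0.00943) and 0.18 with NNK (adjusted p = 0.0213), of which the NNK call passed in 13 of 20 alternatives and the CSC call in 16. The NNK call was lost without the 8 libraries with NRG1 reads (-0.17, adjusted p = 0.0516), the CSC call without the NRG1 line (-0.13, adjusted p = 0.147) and the BaP call without replicate 2 (-0.20, adjusted p = 0.0716). Within lines VIM fell with CSC in HcRed (-0.51) and NRG1 (-0.48) and with BaP in CDKN2A (-1.37). TP63 fell by 0.16 with BaP and 0.13 with CSC, and both signs turned, to 0.01 and 0.04, with the correction for GC content and length. The CSC change did not pass without the CDKN2A line (-0.07, adjusted p = 0.151). ZEB1 fell with BaP (-0.54 ± 0.22, adjusted p = 0.0289) and SPARC rose with NNK (0.14 ± 0.06, adjusted p = 0.0438), and these calls passed in 10 of 19 and 8 of 20 alternatives. Without the 8 libraries with NRG1 reads ZEB1 stood at -0.51 (adjusted p = 0.0542). For GRHL2 and TWIST1 no chemical passed, with estimates from -0.07 to 0.05 and from 0.11 to 0.19. Members called were 5 of 9 with CSC against 55.6% of all tested genes, 6 of 9 with BaP against 51.4% and 4 of 9 with NNK against 51.7%, shares near the background in each case.

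Genes of the same lists were counted with the chemicals over the 8 lines, against 55.6% of all tested genes called with CSC, 51.4% with BaP and 51.7% with NNK. Among junction and epithelial splicing genes 11 of 23 rose and 5 fell with CSC, 9 rose and 5 fell with BaP, and 14 rose and 4 fell with NNK. The tight junction claudin CLDN4 rose with each, by 1.06 (± 0.09), 0.80 (± 0.09) and 0.54 (± 0.10), while CLDN1 fell by 0.26, 0.66 and 0.23. Mesenchymal genes went both ways, with 4 of 19 higher and 5 lower with CSC, 4 of 18 higher and 6 lower with BaP, and 7 of 19 higher and 2 lower with NNK, shares near or below that background. The collagen gene COL1A1 rose by 0.91 (± 0.10), 0.82 (± 0.11) and 0.73 (± 0.11), and FSTL1 fell by 0.37, 0.39 and 0.17. Of the 22 basal cell genes 8 rose and 10 fell with CSC, 7 rose and 12 fell with BaP, and 11 rose and 7 fell with NNK, and the KRT14 change was -0.74 (± 0.05) with CSC and with BaP. The EMT factor TCF4 fell with BaP (-0.96 ± 0.14), CSC (-0.35 ± 0.12) and NNK (-0.34 ± 0.13), while TCF3 rose with all 3.

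**Figure D5:**
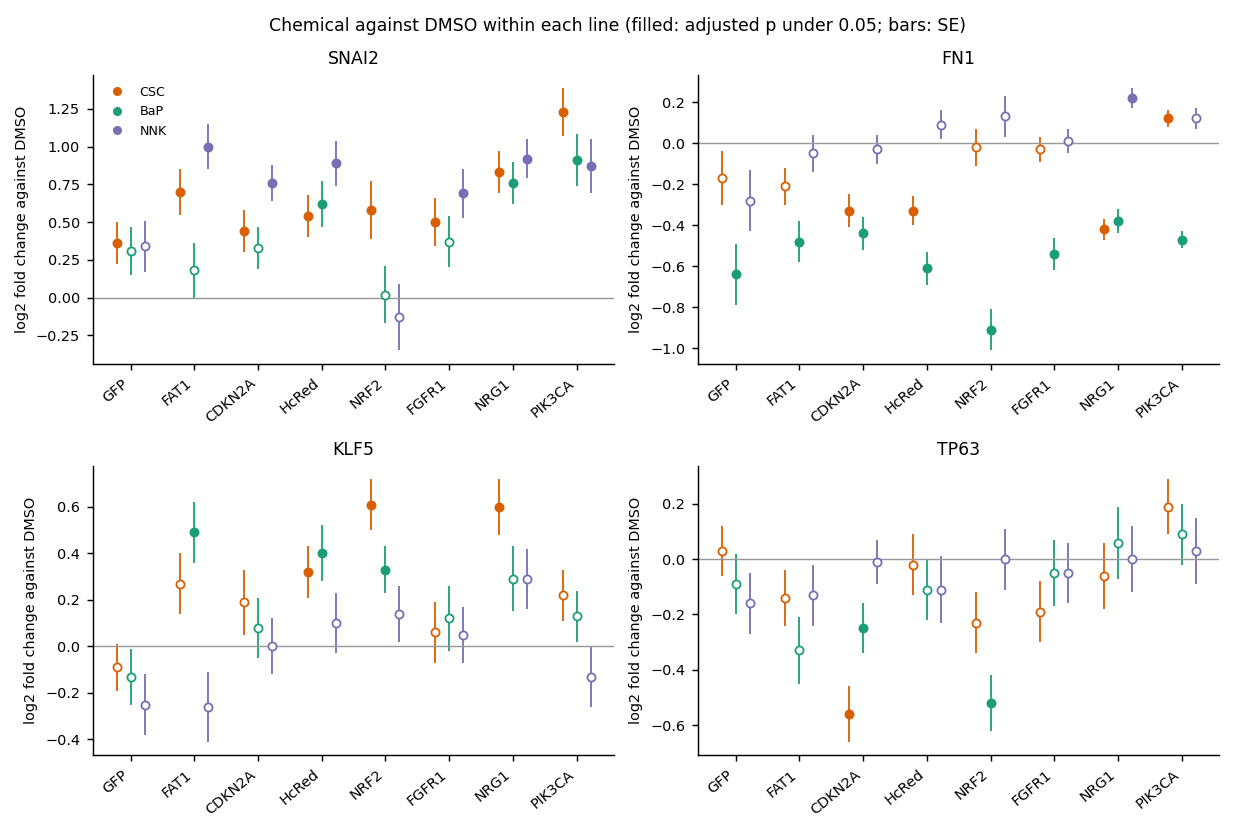
Log2 fold change against DMSO within each line, with SE, for SNAI2, FN1, KLF5 and TP63 with CSC, BaP and NNK (colours), from limma-voom, with filled symbols for an adjusted p under 0.05. SNAI2 lies above 0 with CSC and FN1 below 0 with BaP in 8 of 8 lines, and TP63 with CSC is lowest in CDKN2A at -0.56.

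Whether the response to a chemical differed between the 8 lines was tested with the interaction of line and treatment. TP63 passed for CSC (adjusted p = 0.00544) and so did KLF5 (adjusted p = 0.0478), 2 of 27 member tests, where 1.28% of all genes passed for CSC, 0.250% for BaP and 0.174% for NNK. TP63 in CDKN2A read 283, 286 and 304 CPM with DMSO and 186, 186 and 198 CPM with CSC, a 1.47-fold fall within that line (-0.56 ± 0.10, adjusted p = 1.06e-05), while in the other 7 lines the CSC change lay between -0.23 and 0.19 and did not pass. KLF5 rose with CSC in NRF2 (0.61 ± 0.11), NRG1 (0.60 ± 0.12) and HcRed (0.32 ± 0.11), and in GFP the estimate was -0.09 (adjusted p = 0.547). The TP63 difference was lost with DESeq2 (adjusted p = 0.0964) and without replicate 2 (adjusted p = 0.441), and that of KLF5 was lost without any single replicate and without the 8 libraries with NRG1 reads (adjusted p = 0.292). For SNAI2 with NNK the difference between lines stood at adjusted p = 0.0576, and for FN1 with CSC at 0.255, which passed with edgeR (2.17e-04) and DESeq2 (0.00658). In data simulated for NNK with a change in the NRF2 line only, this test recovered 82.5% of 200 genes changed 4-fold but 3.0% of 200 genes changed 2-fold, and in the latter 14.3% of its calls were unchanged genes. Most of those 2-fold changes were thus missed, and the share missed at the read counts of the members was not tested. For CSC, TP63 and KLF5 passed with largest within-line changes of -0.56 and 0.61 on the log2 scale, both under 2-fold. A response that did not pass is not shown to be alike in the lines.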

How the data were processed

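SFL libraries were pooled for sequencing, and 95 were used. Per the labels, the authors trimmed reads with cutadapt 1.12, checked them with FastQC 0.11.5, aligned them to hg19 with STAR 2.5.2b and counted them per RefSeq gene with featureCounts (Subread), and deposited raw counts for 27978 symbols. Groups were taken from the labels. Here counts were scaled by TMM and tested with limma-voom 3.58.1 (edgeR 4.0.16, R 4.3.3), two-sided, keeping genes whose mean count over the fitted samples exceeded 1, with Benjamini-Hochberg adjustment over all genes tested and a threshold of 0.05. Fits compared each line against its control under DMSO, or over 4 treatments with treatment as a term, GFP against HcRed, each chemical against DMSO with line as a term or within lines, line by chemical, and all pairs of lines. Identical counts were found in 0 pairs of libraries. Errors are SE of log2 fold changes unless stated. The alternatives included DESeq2 1.42.0, the quasi-likelihood test of edgeR, other count filters, a GC content and length correction, a replicate block, and leaving out replicates, treatments, lines or the libraries with NRG1 reads. The last was added after the data were seen. On simulated data for NRG1 against HcRed over 4 treatments, with 14221 genes, limma-voom recovered 98.5% of 200 genes changed 2-fold. For the same lines under DMSO, 3 against 3 samples with 14057 genes, it recovered 57.0%. The limit of 3 counts covers counting error only. RefSeq symbols matched the GENCODE annotation on GRCh37 for 24296 of 27978 genes (86.8%). The named genes are the 10 members, the perturbed genes, the 2 genes whose group means correlated best with each member, and from each list, per comparison, the 2 genes with the largest rise and the 2 with the largest fall among those that passed with a mean count of at least 10. The members and lists were chosen with earlier results of these data known.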

Additional observations from a re-analysis of the deposited data

Results flagged for a closer look

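The CSC responses of TP63 (adjusted p = 0.00544) and KLF5 (adjusted p = 0.0478) differed between the 8 lines by the test of the line-by-treatment interaction. For TP63 the within-line changes ran from -0.56 in CDKN2A to 0.19 in PIK3CA, and for KLF5 from -0.09 in GFP to 0.61 in NRF2. Without the 8 libraries with NRG1 reads, which include the 3 NRF2 CSC libraries, the KLF5 difference stood at adjusted p = 0.292. No cause was tested.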

How the results depend on the processing

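Of 95 alternative counts of members called, 86 lay within 1.5 times the reported count. Line against control over 4 treatments gave 39 calls, and 24, 19 and 22 with CSC, BaP or NNK samples alone, fits with fewer samples. The interaction gave 2 calls, and 1 with DESeq2, with no count filter and without the libraries with NRG1 reads. Leaving out a replicate gave 19 to 22 calls under DMSO, 31 to 37 over 4 treatments, 5 to 6 for GFP against HcRed, 10 to 14 for the chemicals, 0 to 1 for the interaction, 163 to 164 for pairs of lines and 33 to 38 within lines. Signs turned for KLF5 in FAT1 with BaP samples alone (0.01) and TP63 in CDKN2A with CSC samples alone (-0.27). With the GC content and length correction they turned for TP63 with CSC (0.04), FN1 with CSC (0.05) and TP63 with BaP (0.01), and together with the replicate block they were 0.05, 0.05 and 0.01. The cause was not tested. Replicate numbers were not treated as pairs in the main fits. In 0 of 48 pairs of groups was every correlation of same-numbered deviations above 0.1, with means from -0.034 to 0.116. Weak pairing could also fail this rule, so its absence is not shown. The replicate block alone gave 24 member calls under DMSO, 39 over 4 treatments, 5 for GFP against HcRed, 14 for the chemicals, 2 for the interaction, 179 for pairs of lines and 42 within lines. Calls over all genes moved more: under DMSO from 11945 to 6307 with DESeq2, for the chemicals from 22901 to 10514 with the GC correction (10462 with the block), for the interaction from 246 to 102 with DESeq2, 147 with the GC correction, 158 with the block added, 139 without a filter, and 113 and 149 without replicates 2 and 3, and for lines over 4 treatments from 25685 to 11125, 9872 and 8372 in CSC, BaP and NNK samples alone. Depth limits SOX2, ZEB1 and, in the knockout family, SPARC.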
